A study of Mus musculus with 24 samples.

Results

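The genes described here are 40 mouse genes of DNA replication and the G1/S step of the cell cycle, out of 55487 gene IDs counted in each library. They were taken from a list named by symbol, with no cutoff on their values in these samples, and each of the 40 symbols matched 1 gene ID. The libraries came from sorted hematopoietic stem cells (HSCs), from which all blood lineages are renewed, and form 3 experiments in a series on PUS10, a pseudouridine synthase, in HSC ageing. Cells labelled PUS10-OE (overexpression of PUS10, n = 3) were set against Vector (n = 3). Cells labelled miR139-KD (knockdown of the microRNA miR-139, n = 6) were set against NTC (n = 6). Libraries labelled Pus10-KO (n = 3) were set against Pus10-WT (n = 3). Genotype and cell type were the only descriptions of each group in the labels, and the sources used here give no strain, age, construct, culture time or animal for a library. RNA was read by Smart-seq2, a full-length cDNA method that does not mark the strand. Levels below are normalised CPM (read counts relative to library size, with library sizes scaled by TMM within each comparison), and p-values rest on the spread among libraries that may be technical repeats.

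Before a cell copies its genome, the origin recognition complex (Orc1, Orc6), Cdc6 and Cdt1 load the Mcm2 to Mcm7 ring onto DNA. Cdc45 and the GINS proteins then turn the ring into the active helicase, and primase, polymerases, the Pcna clamp and its loader copy the strands. Cyclin E, made from Ccne1 and Ccne2, and E2F transcription factors drive the passage from G1 into S phase, and most replication genes are E2F targets that are read in late G1. Adult HSCs in the marrow are largely quiescent, so such transcripts are usually scarce in freshly sorted HSCs and abundant in dividing progenitors.

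Promoter sequences are shown for 5 members on which the later comparisons turn: Mcm7, which had the lowest p among members in 2 of the 3 comparisons, Mcm3, Cdca7 and Clspn, whose PUS10-OE and Vector libraries did not overlap, and Slbp, which had the lowest p in the miR-139 knockdown. The windows run from 250 bases before to 50 after the start in RefSeq (GRCm38.p6) and are written 5′ to 3′ on the gene's strand. They are chr5:138171834-138172133 (minus) for Mcm7, chr1:20820263-20820562 (minus) for Mcm3, chr2:72475969-72476268 (plus) for Cdca7, chr4:126556730-126557029 (plus) for Clspn and chr5:33652525-33652824 (minus) for Slbp. Capitals mark matches to an E2F-type motif, searched as TTTGGCGC, TTTCCCGC, TTTCGCGC and TTTGCCGC on both strands. One stretch can match on both strands at once. The table holds a second Mcm7 window, chr5:138171217-138171516 (minus), with no match. Of the other members without overlap between PUS10-OE and Vector, Chaf1b, Prim1 and Dut had windows with no match, which are not shown.
Mcm7: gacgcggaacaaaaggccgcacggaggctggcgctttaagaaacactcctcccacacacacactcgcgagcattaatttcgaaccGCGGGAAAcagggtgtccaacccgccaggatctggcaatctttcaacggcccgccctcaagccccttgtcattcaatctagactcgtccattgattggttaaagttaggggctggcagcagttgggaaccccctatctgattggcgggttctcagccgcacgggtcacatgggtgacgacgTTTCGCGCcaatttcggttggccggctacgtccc
Mcm3: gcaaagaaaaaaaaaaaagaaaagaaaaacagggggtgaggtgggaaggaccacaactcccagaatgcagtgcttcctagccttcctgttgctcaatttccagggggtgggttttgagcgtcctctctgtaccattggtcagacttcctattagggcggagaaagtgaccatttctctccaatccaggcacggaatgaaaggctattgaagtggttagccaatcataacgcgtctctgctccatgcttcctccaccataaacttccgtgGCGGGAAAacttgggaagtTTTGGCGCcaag
Cdca7: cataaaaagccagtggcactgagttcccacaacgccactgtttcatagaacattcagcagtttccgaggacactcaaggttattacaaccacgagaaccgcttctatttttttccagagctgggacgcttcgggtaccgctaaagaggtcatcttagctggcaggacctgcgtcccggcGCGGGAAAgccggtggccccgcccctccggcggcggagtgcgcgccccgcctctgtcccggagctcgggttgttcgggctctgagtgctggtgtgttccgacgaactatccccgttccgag
Clspn: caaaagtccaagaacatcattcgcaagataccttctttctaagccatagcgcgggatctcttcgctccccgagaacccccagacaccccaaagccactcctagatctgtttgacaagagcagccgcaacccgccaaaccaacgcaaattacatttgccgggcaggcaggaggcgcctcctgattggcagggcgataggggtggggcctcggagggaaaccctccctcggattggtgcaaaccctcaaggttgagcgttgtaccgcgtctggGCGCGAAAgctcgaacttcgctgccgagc
Slbp: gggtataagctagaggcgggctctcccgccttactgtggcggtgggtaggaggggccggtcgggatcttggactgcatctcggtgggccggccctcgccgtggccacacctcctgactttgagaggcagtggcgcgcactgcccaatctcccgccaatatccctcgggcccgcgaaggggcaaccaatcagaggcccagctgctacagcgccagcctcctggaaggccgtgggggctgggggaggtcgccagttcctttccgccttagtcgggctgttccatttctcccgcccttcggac

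Of the 40 members, 32 had a promoter in the table, and 14 of these (43.8%) held at least 1 E2F-type match. Over all 27025 genes of the table, 704 (2.61%) held one. The 14 were the helicase genes Mcm3, Mcm5, Mcm6 and Mcm7, the licensing genes Cdc6, Cdt1 and Orc1, the polymerase genes Pola1 and Pold1, and Lig1, Uhrf1, Cdca7, Hells and Clspn. In a window starting 150 bases before the start, 13 members (40.6%) and 1.91% of all genes held a match. CCAAT, another short promoter motif, was in the windows of 18 members (56.3%), against 41.1% of all genes. The Slbp window held none of the 4 E2F-type words but 3 copies of CCAAT. A match is a run of letters, and binding was not measured.

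Gene counts per library were 40.9 M to 42.6 M (mega) for PUS10-OE and 34.2 M to 47.3 M for Vector. For miR139-KD they were 9.87 M to 14.4 M, against 11.8 M to 14.7 M for NTC, and for Pus10-KO 11.9 M to 18.2 M, against 14.5 M to 16.5 M for Pus10-WT. Pus10 itself averaged 257 ± 23.7 CPM in PUS10-OE and 75.9 ± 20.2 CPM in Vector (SD, n = 3 each). It averaged 35.2 ± 1.31 CPM in the libraries labelled Pus10-KO and 28.4 ± 7.68 CPM in Pus10-WT (SD, n = 3 each), so its summed exon reads did not mark the knockout; which part was deleted is not stated in the labels. All 12 HSC markers examined were detected in every group. Markers of other blood cells differed between libraries. Summed B and plasma cell markers (8 genes) lay at 104 to 113 CPM in Pus10-KO against 19593 to 27767 CPM in Pus10-WT, while Mzb1, Cd79a and Ms4a1 were at 0 in every Pus10-KO library. Erythroid, neutrophil and B cell markers varied between libraries of both miR139-KD and NTC, with neutrophil sums of 1379 to 18028 CPM in miR139-KD and 1475 to 19196 CPM in NTC. In bulk libraries, fewer cells of a type and less RNA per cell cannot be told apart.

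Pus10-WT replicate 2 stood apart on the low side for the 40 genes, and miR139-KD replicate 1 did so less clearly. The first lay below its group mean for 38 of 40 members and was the lowest of its group for 37, and Ccne1, cyclin E1, and Chaf1a, a subunit of the histone chaperone CAF-1, were at 0 reads in it. Its summed level of 20 G2/M markers, genes of mitosis, was also the lowest of all 24 libraries at 103 CPM. In the miR-139 experiment, miR139-KD replicate 1 was the lowest of its group for 18 of 40 members and the highest for 7. It lay below its group mean for 27 members, but so did replicate 4, and replicate 2 did for 28. Replicate 1 was also the shallowest library of the series (9.87 M). Its G2/M sum, at 4464 CPM, was the highest of its experiment. On the high side, Pus10-KO replicate 2 lay above its group mean for 36 of 40 members and was the highest of its group for 28. Pus10-WT replicate 1 lay above its group mean for 37 and was the highest for 26. The counts and medians of the members are given with and without Pus10-WT replicate 2 and miR139-KD replicate 1.

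**Figure D1:**
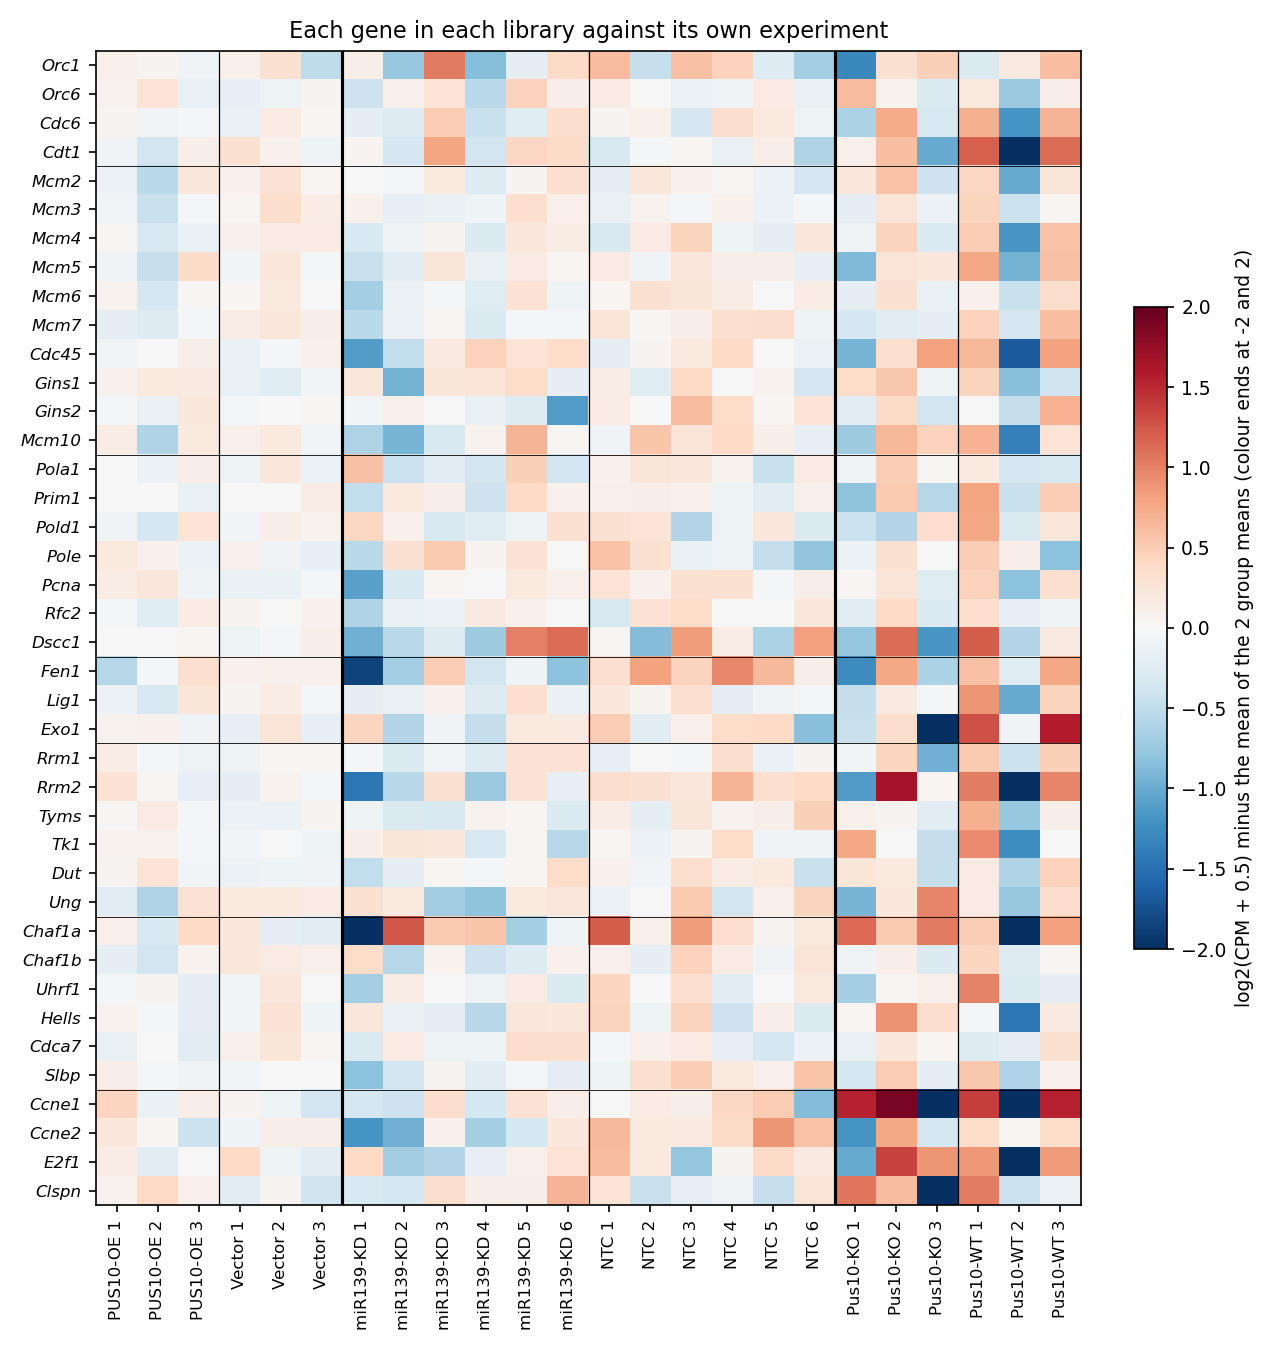
Level of each of the 40 genes (rows, ordered by role from origin licensing at the top to G1/S control at the bottom) in each of the 24 libraries (columns), as log2(CPM + 0.5) minus the mean of the 2 group means of the same experiment. Red is above that mean and blue below it; Pus10-WT replicate 2 is blue in nearly every row, and the PUS10-OE and Vector columns are the palest.

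Together the 40 genes took up 0.905%, 0.834% and 0.891% of the reads counted in genes in PUS10-OE, against 0.909%, 0.979% and 0.930% in Vector. They took up 0.542% to 0.749% (median 0.639%) in miR139-KD, against 0.671% to 0.742% (median 0.708%) in NTC. In the third experiment the shares were 0.256%, 0.357% and 0.245% in Pus10-KO, against 0.365%, 0.179% and 0.336% in Pus10-WT. Every PUS10-OE library lay below every Vector library by this measure, by a margin smaller than the spread within either group, whereas the other pairs of groups overlapped. In TMM-normalised CPM, the PUS10-OE sums (9358, 8541 and 8892) overlapped the Vector sums (8897, 9625 and 9176), so this separation depended on the scaling. By share of reads, the lowest 3 miR139-KD libraries (replicates 1, 2 and 4) lay below all 6 NTC libraries and replicate 5 lay above all of them. In Pus10-KO, replicate 2 stood above its 2 partners.

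**Figure D2:**
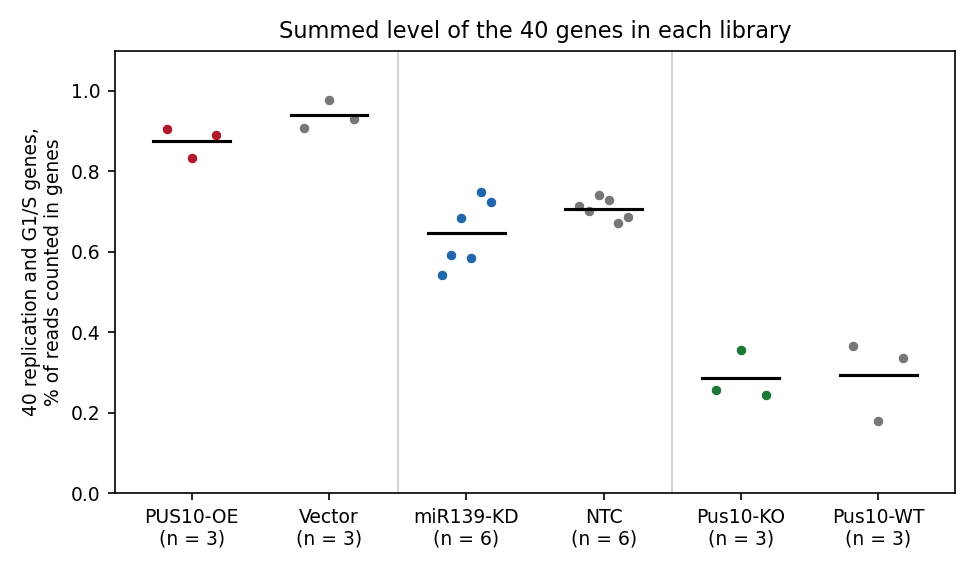
Share of gene reads (y axis, %) taken by the 40 genes in each library; points are libraries and black bars are group means, with grey lines between the 3 experiments. PUS10-OE and Vector libraries lie at 0.834% to 0.979%, and Pus10-KO and Pus10-WT libraries at 0.179% to 0.365%.

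The level of the genes separated the experiments more than the treatments. Among control libraries, scaled by library size alone, 38 of the 40 members were lowest in Pus10-WT, the exceptions being Pold1, the catalytic subunit of polymerase delta, lowest in Vector, and Chaf1b, another CAF-1 subunit, lowest in NTC. The highest level was in Vector for 25 members and in NTC for 15. The median member was 3.11 times as high in Vector and 2.69 times as high in NTC as in Pus10-WT. Hells, a chromatin remodeller of the SNF2 family, was 14.4 times and Ccne2, cyclin E2, was 11.5 times as high in Vector as in Pus10-WT. Vector and NTC were closer, at a median ratio of 1.33, but single genes went both ways: Ccne2 was 4.19 times as high in Vector as in NTC, and the ratio was 0.193 for E2f1, 0.313 for the checkpoint adaptor Clspn and 0.332 for Uhrf1, which carries DNA methylation through replication. The control groups also differed in marker levels, scaled by TMM within each comparison. HSC marker sums (12 genes) were 2795 to 3370 CPM in Pus10-WT, 934 to 1036 CPM in Vector and 597 to 935 CPM in NTC. Sums of multipotent progenitor markers (7 genes) were 229 to 326, 1245 to 1292 and 768 to 1398 CPM. Their part in the ratios was not tested. Experiment, library depth, cell make-up and any difference in how cells were kept cannot be told apart here, so these ratios have no test.

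Levels were compared between genes only per kilobase of exon not shared with another gene. On that scale Pcna, the sliding clamp, was among the 2 highest members in each of the 6 groups, at 312 CPM per kb in PUS10-OE, 280.03 in Vector, 151 in miR139-KD, 185 in NTC, 88.1 in Pus10-KO and 87.8 in Pus10-WT. Mcm6, a helicase subunit, and Dut, which removes dUTP before it can enter DNA, were among the highest 5 in each group. E2f1, at 2.40 CPM per kb in PUS10-OE and 2.61 in Vector, was among the lowest 3 in those groups only. Reads of Fen1 (84.2% of exon bases shared with genes on the other strand), Gins2 (67.3%) and Chaf1a (52.5%) were largely ambiguous to the counting, so their counts cover only part of each gene.

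**Figure D3:**
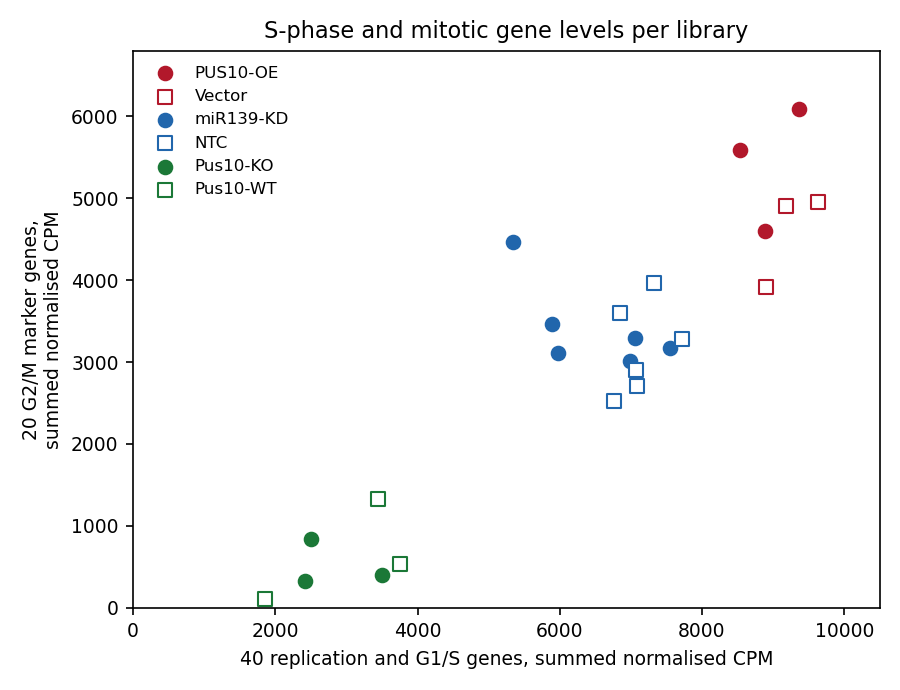
Summed normalised CPM of the 40 genes (x axis) against that of 20 G2/M marker genes (y axis) in the 24 libraries; filled circles are PUS10-OE, miR139-KD and Pus10-KO, open squares their controls. The 6 libraries of the third experiment lie at the lower left, with member sums of 1854 to 3749 CPM, and the 6 of the first at the upper right, with 8541 to 9625 CPM.

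The first comparison asks which transcripts differ when more PUS10 is made. The 40 genes lay close to their Vector levels in PUS10-OE, between log2 fold changes of -0.36 and 0.37. The ring subunits Mcm3, Mcm4 and Mcm7 and the chromatin genes Chaf1b and Cdca7 had lower values in every PUS10-OE library than in any Vector library, and Gins1, Clspn and Dut had higher ones. No member passed the threshold in edgeR's quasi-likelihood test (Benjamini-Hochberg adjusted p under 0.05 over the 14834 genes tested). The background was 0% of all genes called, so the count of 0 of 40 does not set the members apart. Pus10 itself, whose groups did not overlap, was not called by edgeR either (log2 fold change 1.76, edgeR adjusted p = 0.278). The absence of calls here therefore does not show an absence of change. At an unadjusted p under 0.05 there were 6 members (15%), against 8.19% of all genes: 1 was higher (4.47% of all genes) and 5 lower (3.72% of all genes). DESeq2 called 1 member, against 248 of the 22649 genes with reads, and limma-voom 0, against 0 of 14834. The 3 libraries of each group did not overlap for 9 members (22.5%), against 15.1% of all genes: 3 were higher in PUS10-OE (8.31% of all genes) and 6 lower (6.75% of all genes). Of the 40, 22 (55%) had a log2 fold change below 0, against 49.3% of all genes, and the median was -0.05, against 0.01 over all genes. It was 0.02 without PUS10-OE replicate 2 or without Vector replicate 2, so its sign rests on single libraries.

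Among the 10 helicase genes, 7 had a log2 fold change below 0. Mcm7, a subunit of the ring, had 238, 228 and 266 CPM in PUS10-OE, against 303, 320.3 and 296 CPM in Vector. All PUS10-OE libraries lay below all Vector libraries, and the fitted log2 difference was -0.33 (SE 0.092, edgeR adjusted p = 0.411). DESeq2 gave an adjusted p of 0.0474 for it. Mcm4 had 474, 378 and 424 CPM in PUS10-OE, against 493, 524 and 525 CPM in Vector, a fitted log2 difference of -0.27 (SE 0.099, edgeR adjusted p = 0.517). Mcm3 had 342, 263 and 346 CPM in PUS10-OE, against 368, 455 and 393 CPM in Vector, a fitted log2 difference of -0.36 (SE 0.133, edgeR adjusted p = 0.539). The groups did not overlap for these 3 ring subunits, while Mcm5 had 205, 156 and 280.5 CPM in PUS10-OE against 207, 249 and 211 CPM in Vector. PUS10-OE replicate 2 was the lowest library for each of these 4 genes.

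The GINS subunit Gins1 went the other way. It had 67.6, 72.8 and 72.1 CPM in PUS10-OE, against 57.7, 53.6 and 61.4 CPM in Vector, with no overlap and a fitted log2 difference of 0.30 (SE 0.114, edgeR adjusted p = 0.545). Gins2, its partner in the complex, averaged 98.0 ± 12.3 CPM in PUS10-OE and 96.4 ± 2.18 CPM in Vector (SD, n = 3 each). Helicase genes lay on both sides of 0, with standard errors of 0.092 (Mcm7) to 0.220 (Mcm10), and none passed edgeR's threshold. Of the 4 licensing genes, none had an unadjusted p under 0.05; Cdc6, the loader of the ring, had 134, 124 and 126 CPM in PUS10-OE against 117, 145 and 131 CPM in Vector.

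Of the 7 polymerase and clamp genes, Prim1, the primase subunit, had 269, 267 and 244 CPM in PUS10-OE, just below the 270.3, 271 and 297 CPM in Vector. Pcna had 787, 831 and 669.7 CPM in PUS10-OE, against 642, 644 and 696 CPM in Vector, where the groups overlapped (fitted log2 difference 0.21, SE 0.098, edgeR adjusted p = 0.670). The 6 genes grouped as nucleotide supply include Ung, which encodes a uracil-DNA glycosylase rather than an enzyme that makes nucleotides. Of the 6, 5 were above 0, the exception being Ung (log2 fold change -0.31). Dut did not overlap, with 450.01, 524 and 416 CPM in PUS10-OE against 398, 409 and 411 CPM in Vector. Rrm2, the small subunit of ribonucleotide reductase, overlapped, with 617, 517 and 454 CPM in PUS10-OE against 448, 532 and 492 CPM in Vector.

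Among chromatin genes, Chaf1b had 186, 163 and 224 CPM in PUS10-OE, against 248, 237 and 228 CPM in Vector, a fitted log2 difference of -0.32 (SE 0.125, edgeR adjusted p = 0.570). Cdca7, which works with Hells in DNA methylation, had 329.9, 362 and 313 CPM in PUS10-OE, against 392, 432 and 377 CPM in Vector, a fitted log2 difference of -0.26 (SE 0.094, edgeR adjusted p = 0.517). Neither gene's groups overlapped. Uhrf1 had 65.1, 68.5 and 58.0 CPM in PUS10-OE against 63.8, 77.4 and 65.8 CPM in Vector.

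Of the G1/S control genes, Clspn had 31.3, 39.8 and 31.7 CPM in PUS10-OE, against 25.7, 31.1 and 22.7 CPM in Vector, a fitted log2 difference of 0.37 (SE 0.186, edgeR adjusted p = 0.703). Ccne1 had 97.6, 65.4 and 79.1 CPM in PUS10-OE against 75.2, 66.9 and 55.2 CPM in Vector, and Ccne2 had 152, 133 and 96.4 CPM in PUS10-OE against 124, 143 and 143 CPM in Vector. The E2F factor E2f1 had 8.70, 6.63 and 7.77 CPM in PUS10-OE against 10.4, 7.22 and 6.69 CPM in Vector. The cyclins and E2f1 overlapped between the groups. Precision was high here: for 39 of 40 members the 95% interval of the difference lay within 2-fold either way, and for 30 within 1.5-fold, Fen1 being the exception at 2-fold.

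Outside the 40 genes, 54 other replication genes were tested against Vector and 0 were called by edgeR, with 2 at an unadjusted p under 0.05 (8.19% of all genes) and a median log2 fold change of -0.05. The 2 with the lowest p were Ticrr, a firing factor, with 13.0, 18.6 and 13.7 CPM in PUS10-OE against 22.1, 20.2 and 22.7 CPM in Vector, and Gins3, with 38.8, 40.3 and 35.5 CPM in PUS10-OE against 44.3, 54.0 and 46.6 CPM in Vector. Of 25 other G1/S regulators 0 were called, with 2 at an unadjusted p under 0.05. Cdk6, the kinase partner of D cyclins, averaged 1040.3 ± 65.5 CPM in PUS10-OE and 842 ± 15.4 CPM in Vector (SD, n = 3 each), and the retinoblastoma gene Rb1 averaged 16.6 ± 2.69 CPM in PUS10-OE and 9.60 ± 3.31 CPM in Vector. Their log2 fold changes were 0.31 (edgeR adjusted p = 0.364) and 0.79 (edgeR adjusted p = 0.566); DESeq2 gave Cdk6 an adjusted p of 0.0482. Of 20 G2/M markers, 1 had a log2 fold change below 0, against 49.3% of all genes, and 0 were called, with sums of 4595 to 6084 CPM in PUS10-OE and 3912 to 4953 CPM in Vector. At an unadjusted edgeR p under 0.05, 5 of the 20 were higher, against 4.47% of all genes, and 0 were lower. Summed markers of multipotent progenitors (7 genes) lay at 889 to 905 CPM in PUS10-OE, below the 1245 to 1292 CPM in Vector, and those of megakaryocytes (6 genes) lay at 249 to 449 CPM in PUS10-OE, above the 153 to 180.4 CPM in Vector, with Gp1bb at 0 in every Vector library; their part in the members' values was not tested.

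**Figure D4:**
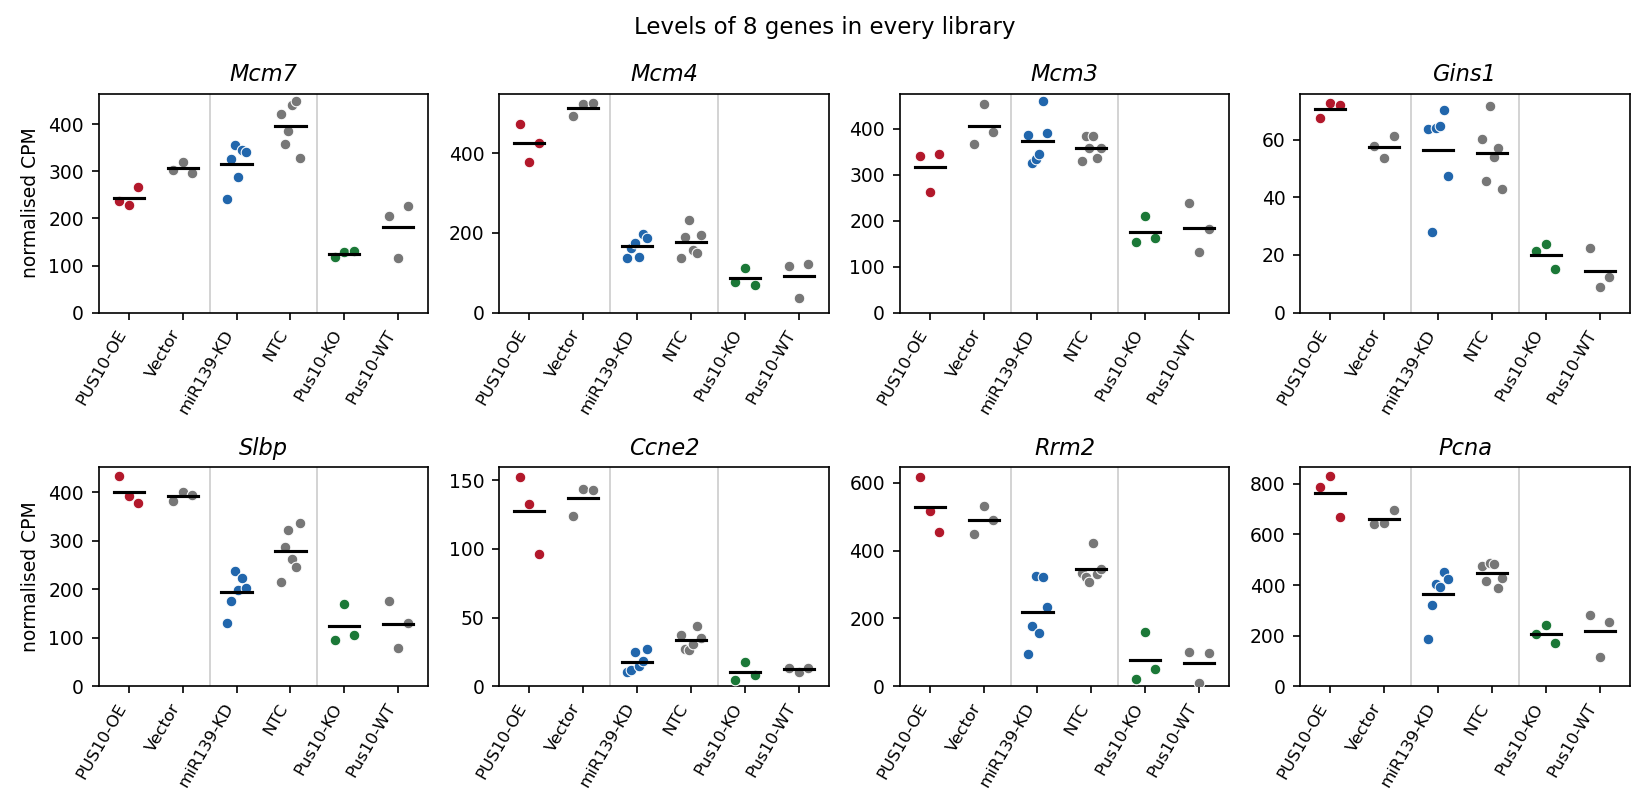
Normalised CPM (y axis, from 0) of 8 genes in each library, with the groups along the x axis; points are libraries, black bars group means and grey lines separate the experiments. Levels are scaled within each experiment, so only neighbouring groups are directly comparable; for Mcm7, Mcm4, Mcm3 and Gins1 the PUS10-OE and Vector points do not overlap.

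The second comparison concerns knockdown of miR-139 and had the most libraries. Most of the 40 genes had slightly lower values in miR139-KD than in NTC, with the largest differences for Fen1, Ccne2, Rrm2 and Slbp, but libraries of the groups overlapped for every one. No member passed edgeR's threshold, while 361 of 13295 genes (2.72%) did. At an unadjusted p under 0.05 there were 6 members (15%), all lower in miR139-KD, against 8% of all genes lower and 16% in either direction. DESeq2 called 2 members, both lower, against 1084 of the 24387 genes with reads in either direction. limma-voom called 0 members, against 517 of 13295 genes. Counting direction alone, for 31 of 40 members (77.5%) the log2 fold change was below 0, against 48.6% of all genes, with a median of -0.09 against 0.02. Leaving out single libraries gave 25 to 33 members below 0 and medians of -0.18 to -0.05, and 29 members and -0.08 without miR139-KD replicate 1. Without the 3 libraries with the highest sums of B and plasma cell markers (miR139-KD replicates 5 and 6 and NTC replicate 5), an alternative chosen after seeing the data, the median was -0.21 and 34 members were below 0, still with 0 called. No member's 6 and 6 libraries were free of overlap, against 3.42% of all genes.

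Slbp, which binds the stem-loop of replication-dependent histone mRNAs, had 130.2, 201 and 238 CPM (lowest, median and highest) in miR139-KD, against 215, 275 and 337 CPM in NTC. Most miR139-KD libraries lay below the NTC range, and the fitted log2 difference was -0.51 (SE 0.146, edgeR adjusted p = 0.0787). It passed the threshold in DESeq2 (adjusted p = 0.0209) and in edgeR when genes under 10 CPM were left out (adjusted p = 0.0403). The highest adjusted p over its 24 settings was 0.179.

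Ccne2 had 10.1, 16.5 and 27.3 CPM (lowest, median and highest) in miR139-KD, against 26.7, 33.0 and 44.0 CPM in NTC. Only miR139-KD replicate 6 reached into the NTC range, and the fitted log2 difference was -0.90 (SE 0.273, edgeR adjusted p = 0.100; DESeq2 adjusted p = 0.0206). The other cyclin E gene, Ccne1, had 69.0, 86.9 and 118 CPM in miR139-KD against 50.6, 102 and 131 CPM in NTC, a log2 fold change of -0.14. Its groups overlapped throughout, as did those of E2f1, with 23.3, 37.3 and 50.6 CPM in miR139-KD against 22.1, 43.4 and 59.0 CPM in NTC.

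In the helicase, 7 of 10 genes were below 0. Mcm7 had 242, 333 and 356 CPM (lowest, median and highest) in miR139-KD, against 328, 404 and 448 CPM in NTC, a fitted log2 difference of -0.33 (SE 0.11, edgeR adjusted p = 0.141). Gins2 had 33.2, 67.6 and 78.2 CPM in miR139-KD against 72.7, 84.4 and 112 CPM in NTC, and Mcm6 had 276, 413 and 539.8 CPM in miR139-KD against 442, 492 and 550.1 CPM in NTC. Their log2 fold changes were -0.46 and -0.27, with edgeR adjusted p of 0.248 and 0.313. In each of the 3 genes the groups overlapped. Mcm3 and Mcm4, which did not overlap between PUS10-OE and Vector, had log2 fold changes of 0.06 (SE 0.093) and -0.09 (SE 0.139) here.

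All 6 genes grouped as nucleotide supply, Ung among them, were below 0, between -0.66 and -0.01. Rrm2 had 95.5, 206 and 326 CPM (lowest, median and highest) in miR139-KD, against 308, 334 and 423 CPM in NTC, a fitted log2 difference of -0.66 (SE 0.237, edgeR adjusted p = 0.173). The miR139-KD libraries spread widely and the NTC libraries little, and replicates 3 and 5 lay inside the NTC range. Tyms, thymidylate synthase, had 163, 175 and 210.3 CPM in miR139-KD against 177, 220 and 278 CPM in NTC, a fitted log2 difference of -0.30 (SE 0.115, edgeR adjusted p = 0.209). The large subunit Rrm1 had a log2 fold change of -0.01 (SE 0.123).

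Of the polymerase and clamp genes, Pcna had 186, 398 and 452 CPM in miR139-KD against 387, 452 and 488 CPM in NTC, with miR139-KD replicate 1 alone far below the others. Its log2 fold change was -0.30, and -0.16 without that library. Fen1, the flap endonuclease, had 0.70, 2.50 and 5.53 CPM in miR139-KD against 4.15, 5.83 and 7.84 CPM in NTC, a fitted log2 difference of -1.09 (SE 0.566, edgeR adjusted p = 0.374), counted over the small unshared part of the gene. Among licensing genes, Cdc6 had 62.8, 73.5 and 122 CPM in miR139-KD against 67.6, 90.8 and 109.9 CPM in NTC, and Cdt1 had the highest log2 fold change of all members, 0.35 (SE 0.193, edgeR adjusted p = 0.408). Uhrf1 had 121, 187 and 217 CPM in miR139-KD against 166, 207 and 261 CPM in NTC. Mcm5 had 252, 333 and 407 CPM in miR139-KD against 307, 376 and 402 CPM in NTC. The 95% interval lay within 2-fold for 36 members, not for Rrm2, Ccne2, Fen1 and Chaf1a, and within 1.5-fold for 23.

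**Figure D5:**
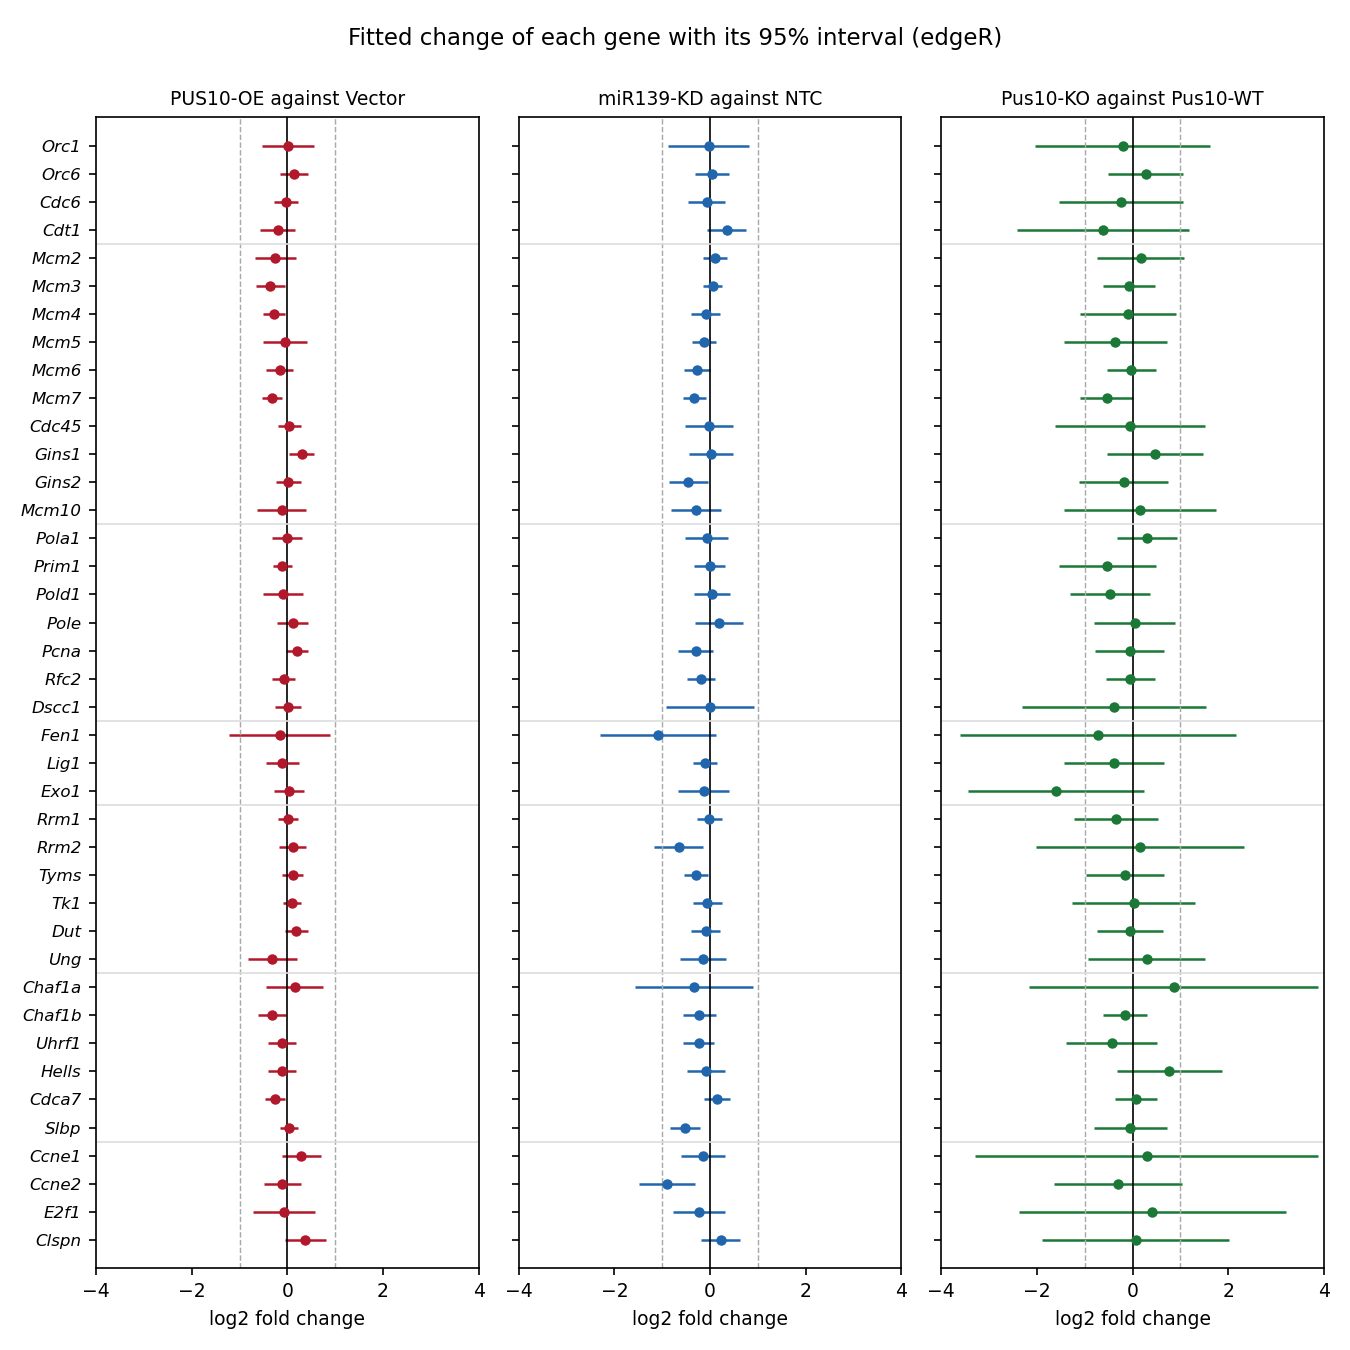
Log2 fold change of each of the 40 genes (x axis) with its 95% interval from edgeR in the 3 comparisons; genes run by role from origin licensing at the top to G1/S control at the bottom, grey horizontal lines separate the roles and dashed lines mark 2-fold. The dots lie on both sides of 0 in each panel and the intervals are widest for Pus10-KO against Pus10-WT, where 29 reach past 2-fold.

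A microRNA of the miR-139 family acts by pairing its seed to 3′ untranslated regions, so the members were searched for a match to the seed of miR-139-5p. The mature sequence in RefSeq (GRCm38.p6, chr7:101475382-101475403, plus strand) is given with its seed, bases 2 to 8, in capitals. It is followed by the windows around the match in Tyms (chromosome 5), Cdc6 (chromosome 11) and Fen1 (chromosome 19), with ACTGTAG, the reverse complement of the seed, in capitals. They are shown because Tyms and Fen1 were among the 8 members with the lowest p and Cdc6 was a licensing gene with a site and a value near 0.
miR-139-5p: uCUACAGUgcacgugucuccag
Tyms: aagcaaacttcACTGTAGtgtgtgtagca
Cdc6: cactgcagaagACTGTAGagaggagattg
Fen1: ggttaatggacACTGTAGtcattgttctg

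Sites were found in the longest annotated 3′ untranslated region of 5 of 40 members (12.5%), namely Cdc6, Fen1, Hells, Mcm5 and Tyms, against 1534 of 11044 tested genes (13.9%). The log2 fold changes on knockdown were -0.06 for Cdc6, -1.09 for Fen1, -0.09 for Hells, -0.11 for Mcm5 and -0.30 for Tyms, with a median of -0.11, against -0.09 for the 35 members without a site. Over all genes the medians were 0.04 with a site and 0.01 without. Slbp, Ccne2, Mcm7 and Rrm2 held none.

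Of 54 other replication genes in the knockdown, 1 was called lower and 0 higher by edgeR, with a median log2 fold change of -0.13 and 37 below 0. It was Pola2, the second subunit of polymerase alpha, with 64.1 to 81.6 CPM in miR139-KD and 91.7 to 117 CPM in NTC, without overlap (fitted log2 difference -0.46, SE 0.112, edgeR adjusted p = 0.0405). It was called in 8 of 24 settings. The call was lost with the replicate block (adjusted p = 0.130), with all 6 groups in 1 edgeR fit (adjusted p = 0.131, the highest), under both other filters and when most single libraries were left out. Of 25 other G1/S regulators, 1 was called lower and 0 higher. It was Ccnd3, cyclin D3, with 98.3 to 204 CPM in miR139-KD and 277 to 562 CPM in NTC (fitted log2 difference -1.44, SE 0.197, edgeR adjusted p = 0.00148), called in all 24 settings. The G2/M markers had 8 of 20 log2 fold changes below 0, against 48.6% of all genes, with sums of 3016 to 4464 CPM in miR139-KD and 2530.2 to 3964 CPM in NTC. Multipotent progenitor markers summed to 311 to 394 CPM in miR139-KD, below 768 to 1398 CPM in NTC, and 6 of 7 were called lower. Megakaryocyte markers (6 genes, none at 0) went the other way, with sums of 1112 to 2810.0 CPM in miR139-KD, above 65.6 to 314 CPM in NTC, and 4 of the 5 tested were called higher. T cell markers (6 genes) summed to 0.80 to 21.6 CPM in miR139-KD, below 41.4 to 62.1 CPM in NTC. Only 1 of them was tested, and it was called lower (log2 fold change -3.12). Cd3e, Cd3g and Trac were at 0 in every library of both groups. HSC markers summed to 1062 to 1190.2 CPM in miR139-KD, above 597 to 935 CPM in NTC. Of the 7 B and plasma cell markers tested, edgeR called 2 lower and 0 higher. The part of these shifts in markers in the members' values was not tested.

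The third comparison sets the libraries labelled Pus10-KO against Pus10-WT. The 40 genes together took up a smaller share of reads in each of these libraries than in any library of the other experiments, and they varied widely within each group: the median coefficient of variation of a member was 33.2% in Pus10-KO and 43.4% in Pus10-WT. No member was called by edgeR, against 9 of 14657 genes (0.0614%), and 0 members had an unadjusted p under 0.05, against 6.86% of all genes. DESeq2 called 0 members, against 237 of the 22642 genes with reads, and limma-voom 0, against 3 of 14657. For no member were the groups free of overlap, against 13.7% of all genes. The median log2 fold change was -0.06 and 25 members (62.5%) were below 0, against 50.3% of all genes. The direction rested on single libraries: the median was -0.34 with 33 members below 0 without Pus10-WT replicate 2, and 0.14 with 13 below 0 without Pus10-WT replicate 1. It was -0.28 without Pus10-KO replicate 2. The 95% interval reached past 2-fold for 29 of 40 members, so for most members a difference of that size lay within the interval.

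Mcm7 again had the lowest p among members, with 117, 128 and 131 CPM in Pus10-KO against 204, 117 and 226 CPM in Pus10-WT, a fitted log2 difference of -0.54 (SE 0.237, edgeR adjusted p = 0.729). The groups overlapped only through Pus10-WT replicate 2, without which the difference was -0.78 (edgeR adjusted p = 0.455). Exo1, an exonuclease of replication repair, had 9.95, 17.7 and 1.73 CPM in Pus10-KO against 34.6, 13.1 and 41.7 CPM in Pus10-WT, a fitted log2 difference of -1.61 (SE 0.790, edgeR adjusted p = 0.789). Hells had 23.3, 43.1 and 29.3 CPM in Pus10-KO against 22.2, 8.07 and 25.9 CPM in Pus10-WT, a fitted log2 difference of 0.77 (SE 0.470, edgeR adjusted p = 0.880). Without Pus10-WT replicate 2 the difference was -1.97 for Exo1 and 0.41 for Hells.

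Among polymerase genes, Pold1 had 30.8, 27.7 and 52.7 CPM in Pus10-KO against 71.8, 34.2 and 48.5 CPM in Pus10-WT. Prim1 had 31.3, 80.0 and 37.1 CPM in Pus10-KO against 96.0, 40.6 and 77.5 CPM in Pus10-WT, and Pola1, the catalytic subunit of polymerase alpha, had 35.6, 52.8 and 38.1 CPM in Pus10-KO against 42.6, 29.4 and 30.2 CPM in Pus10-WT. All 3 overlapped between groups. Pcna had 206, 243 and 172 CPM in Pus10-KO against 279.6, 115 and 254 CPM in Pus10-WT, and Gins1 had 21.2, 23.9 and 15.2 CPM in Pus10-KO against 22.3, 8.95 and 12.3 CPM in Pus10-WT.

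Coefficients of variation reached 107% in Pus10-KO, for Fen1, and 88.4% in Pus10-WT, for Chaf1a. Rrm2 also varied widely, with 22.4, 159 and 51.0 CPM in Pus10-KO against 102, 8.01 and 98.5 CPM in Pus10-WT. Ccne1 had 23.3, 30.2 and 1.14 CPM in Pus10-KO against 21.0, 0 and 23.5 CPM in Pus10-WT, and E2f1 had 2.14, 13.1 and 9.32 CPM in Pus10-KO against 9.21, 0.19 and 9.05 CPM in Pus10-WT. For these 3 genes 1 library of each group differed from its partners by more than the group means differed. Cdc6 had 24.5, 64.8 and 30.6 CPM in Pus10-KO against 63.2, 16.6 and 62.0 CPM in Pus10-WT, Mcm5 had 53.5, 119 and 115 CPM in Pus10-KO against 169, 51.4 and 148 CPM in Pus10-WT, and Uhrf1 had 22.5, 36.8 and 38.4 CPM in Pus10-KO against 71.6, 29.3 and 31.3 CPM in Pus10-WT. Ccne2 had 4.28, 17.9 and 7.97 CPM in Pus10-KO, a range that held the Pus10-WT values of 13.4, 10.5 and 13.4 CPM.

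Of 54 other replication genes here, 0 were called, with 3 at an unadjusted p under 0.05 (6.86% of all genes). The 2 with the lowest p were Cdc7, the kinase that fires origins, with 20.6, 12.0 and 19.6 CPM in Pus10-KO against 30.5, 32.0 and 38.7 CPM in Pus10-WT, and the fork repair gene Tonsl, with 6.83, 7.42 and 6.40 CPM in Pus10-KO against 28.8, 10.8 and 12.8 CPM in Pus10-WT. Their log2 fold changes were -0.95 and -1.34, with edgeR adjusted p of 0.564 and 0.644. Of 24 other G1/S regulators tested, 0 were called, with 4 at an unadjusted p under 0.05. The inhibitors of cyclin-dependent kinases Cdkn1b and Cdkn1c led them: Cdkn1b had 33.4, 30.2 and 23.3 CPM in Pus10-KO against 12.4, 12.2 and 9.12 CPM in Pus10-WT, and Cdkn1c had 19.9, 16.6 and 20.5 CPM in Pus10-KO against 8.15, 2.71 and 5.30 CPM in Pus10-WT. Neither overlapped between groups; the log2 fold changes were 1.36 and 1.82, with edgeR adjusted p of 0.455 and 0.507 and DESeq2 adjusted p of 0.0112 and 0.0454. Of 20 G2/M markers, 14 had a log2 fold change below 0, against 50.3% of all genes, and 0 were called. Their sums were 330.2 to 836 CPM in Pus10-KO and 103 to 1332 CPM in Pus10-WT. Erythroid marker sums were 261 to 5652 CPM in Pus10-KO against 263 to 292 CPM in Pus10-WT. All 7 B and plasma cell markers tested were lower in Pus10-KO without overlap. Of these 7, edgeR called 3, out of 9 genes called in all. The part of these markers in the members' values was not tested.

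Side by side, 12 of 40 members (30%) had a log2 fold change below 0 in all 3 comparisons, against 14.3% of the 12308 genes tested in all 3, and 4 (10.0%) were above 0 in all 3, against 16.1%. The 12 were Ccne2, Cdc6, Chaf1b, Fen1, Lig1, Mcm4, Mcm5, Mcm6, Mcm7, Prim1, Rfc2 and Uhrf1, and the 4 were Clspn, Gins1, Orc6 and Pole. Many of these values lay within their standard error of 0. In at least 1 setting the sign changed for 20 members against Vector, 16 against NTC and 28 against Pus10-WT. Members also moved together within libraries, so their signs are not independent counts. The labels PUS10-OE and Pus10-KO name opposite changes, so a sign shared by all 3 comparisons is a description only. Mcm7 was the only member among the 8 lowest p-values of each comparison, with log2 fold changes of -0.33, -0.33 and -0.54, and its sign did not change in any setting of the 3 comparisons; 12.6% of its exon bases are shared with Ap4m1, Cops6, Mir25 and Mir93. Whether the 3 comparisons differ in any member was not tested, since each experiment had its own depth and controls.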

How the data were processed

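The deposited files hold raw, whole-number counts per gene for 24 libraries. The submitters' processing notes name HISAT2 2.1.0, HTSeq 0.11.2 and the build mm10; which annotation was used for counting is not stated there. Reads assigned to no gene (3.70% to 12.0% of reads) and ambiguous reads (6.53% to 20.1%) stayed out of library sizes and tests. Symbols were matched by Ensembl gene ID without its version. Exons and 3′ untranslated regions came from GENCODE M21, promoters and the microRNA from RefSeq (GRCm38.p6). The 2 groups of a comparison were fitted alone, in R 4.3.3 with edgeR 4.0.16 (filterByExpr, TMM, robust quasi-likelihood F test, two-sided), with Benjamini-Hochberg adjustment over all genes tested and calls at adjusted p under 0.05. Levels are mean ± SD of TMM-normalised CPM, except the comparison of control groups, which used library size only. Standard errors were derived from the fold change and the F statistic, and intervals are at 95%. Reads carry no molecular identifiers, so depth covers counting error only.

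The members, the other gene lists and the marker lists were chosen with earlier results of these data known. Values of every library (in groups of 6, the lowest, the median and the highest) were given for the 8 members with the lowest p in each comparison and for 8 fixed examples; Prim1 and Dut in PUS10-OE were added after their values were seen because their groups did not overlap. Of 2 other lists, called genes or the 2 with the lowest p were named. Of 55 other replication genes, Chtf8 matched 2 gene IDs and was left out.

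Libraries of 1 group were compared in 42 pairs, and no pair agreed within sampling noise (chi-square over its degrees of freedom at least 30.1) and none was merged, which does not show that libraries came from separate animals or cultures. Alternatives were DESeq2 1.42.0, limma-voom (limma 3.58.1) with quality weights, 3 other scalings (RLE, upper quartile, library size only), a 10 CPM filter or none, all 6 groups in 1 fit, the replicate number as a block, and leaving out libraries. Plots were made in Python 3.11.15 with matplotlib 3.10.9.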

Additional observations from a re-analysis of the deposited data

Results flagged for a closer look

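In NTC, 3 values of members lay apart from the other 5 libraries by more than the gap that a Dixon test allows at the 95% level. Rrm2 was at 423 CPM in NTC replicate 4, against 308 to 346 CPM in the others, and Tk1, thymidine kinase, was at 243 CPM in the same library, against 173 to 195 CPM. Pola1 was at 45.9 CPM in NTC replicate 5, against 65.2 to 74.1 CPM in the others. These were 3 of 82 groups of values examined, and chance alone gives about 5% of groups.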

How the results depend on the processing

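Members called by edgeR stayed at 0 in each comparison whichever single library was left out. DESeq2 called 1 member against Vector (Mcm7) and 2 against NTC (Slbp, Ccne2). A filter of 10 CPM gave 1 against NTC (Slbp), with 466 of 9180 genes called in all. The median of the 40 against Vector was -0.10 when scaled by library size only, and lay between -0.069 and 0.016 with single libraries left out. The medians were between -0.18 and -0.05 against NTC and between -0.34 and 0.14 against Pus10-WT. Over all genes, calls against Vector were 248 in DESeq2, 9 with the 10 CPM filter and 5 with all 6 groups in 1 fit. Against NTC they were 1084 in DESeq2, 792 with all 6 groups, 212 with both NTC replicate 6 and miR139-KD replicate 1 left out, 201 without the 3 libraries highest in B and plasma cell markers, and 196 to 340 without single libraries. Against Pus10-WT they were 237 in DESeq2, 3 in limma-voom, 15 with all 6 groups, and 0 to 10 without single libraries.

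With single libraries left out, log2 fold changes that changed sign ranged, against Vector, from -0.32 to 0.12 for Mcm5, -0.11 to 0.045 for Cdc6, -0.014 to 0.19 for Rrm2, -0.25 to 0.046 for Ccne2 and -0.19 to 0.15 for E2f1. Against NTC, Cdc6 ranged from -0.19 to 0.014. Against Pus10-WT the ranges were -0.66 to 0.10 for Uhrf1, -0.37 to 0.16 for Pcna, -0.78 to 0.022 for Cdc6, -0.92 to 0.59 for Rrm2, -0.29 to 0.85 for Ccne1, -1.02 to 0.057 for Ccne2 and -0.16 to 0.86 for E2f1. Pcna was also at 0.0016 against Pus10-WT with library size only, and Pus10 at 0.020 against NTC with both NTC replicate 6 and miR139-KD replicate 1 left out. The cause was not tested.

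Same-numbered libraries did not deviate together (correlations of -0.02 to 0.02; 1 of 3, 1 of 6 and 1 of 3 numbers matched best with their own), so the numbers were not taken to pair samples. With the replicate block, 0 members were called in each comparison, and 0, 188 and 2 of all genes; against Pus10-WT the block gave 0.014 for Pcna and -0.082 for Rrm2. Depth was lowest in the miR-139 experiment, and the spread between libraries limited precision most in the third.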
